A study of Mus musculus with 8 samples.

Results

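Acinar genes were examined in the islets of β-CB1R+/+ mice (labelled WT, n = 4) and β-CB1R-/- mice (labelled CB1_KO, here KO, n = 3). These are the genes that exocrine acinar cells of the pancreas use to make, store and secrete digestive enzymes. The members were 31 named genes, taken as probes whose transcript accession on the array maps to the gene symbol, with the brightest probe standing for a gene that had several. Of the 31 genes, 30 had a probe, out of 21154 genes with a named probe on the array. They comprised 18 of 19 digestive enzymes and cofactors, 7 granule and other secretory proteins, the 4 transcription factors Ptf1a, Rbpjl, Bhlha15 and Nr5a2, and the metabolic enzyme Gatm. Ctrc had no matching probe.

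All mice were male, on a C57BL/6 background and fed the standard diet. According to the study's methods, both genotypes carried Cnr1 flox/flox alleles and received tamoxifen, and only the β-CB1R-/- mice carried MIP-Cre/ERT, an inducible Cre driven by the mouse insulin promoter, which is active in beta cells. The labels name the genotypes only as CB1 WT and CB1 KO, and their protocol text speaks of the global knockout while the title of the series names the beta cell-specific one. Ages of the array mice were not analysed here. Islets were released with 0.7 mg/ml collagenase P for 9 min and picked by hand, and labelled RNA from 200 ng was hybridised to 1-colour Agilent arrays, 1 per mouse and a repeat array for KO 2, 8 in all.

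A level below is the log2 intensity of a probe relative to the 75th percentile of its array, so that a difference of 1 is a doubling, and levels of different genes cannot be ranked because probes differ in brightness. The 75th percentile lay between 235 and 362 intensity units and was highest in KO 3, and 33304 to 39988 probes per array were well above background. Spots left out as outliers numbered 356 on the WT 2 array and 135 to 233 on the others. The probe for Cnr1, the targeted gene, read -1.11, -0.77, -0.53 and -0.02 in WT 1 to 4 and -2.30, -3.13 and -2.28 in KO 1 to 3, so the genotypes did not overlap, although its adjusted p was 0.193 (limma). The hormone probes Ins1, Gcg and Sst were well above background on all 8 arrays, so the labelled tissue was borne out by its defining markers. All arrays were on 1 slide with the WT arrays on one side and the KO arrays on the other, so an effect of place on the slide cannot be told apart from one of genotype. The p-values measure the spread between these mice.

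Acinar cells fill most of the pancreas around the islets. They store proenzymes such as trypsinogens, chymotrypsinogens, proelastases and procarboxypeptidases in zymogen granules, together with lipases, colipase and ribonuclease, and release them into the ducts. PTF1A, a basic helix-loop-helix factor, works with RBPJL in the PTF1 complex on enzyme genes, NR5A2 acts with it, and BHLHA15 (MIST1) governs the secretory apparatus of the mature cell. Hand-picked islets can keep some acinar tissue at their rim. In RNA of whole islets, fewer cells of a type and less RNA per cell cannot be told apart.

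The bases in front of the gene are shown for 3 enzyme or factor genes that hold CACCTG more than once or near a second motif. They are also shown for Rbpjl, and for Pnlip, which holds none. These windows were picked by their motifs, and any bearing of a motif on the levels in the mice was not tested. The E-box CACCTG (either strand) is a form that PTF1A-type factors bind, and TTTCCC (either strand) is the box read by RBPJL-type factors; the motifs share no bases. In RefSeq windows (GRCm38.p6), 25 of the 31 genes matched, with 26 windows, and in the 250 bases before the start CACCTG stood in 57.7% of the member windows and in 17.2% of all 32851 windows. TTTCCC stood in 23.1% and 21.9%, and both motifs in 15.4% and 3.6%. Capitals mark CACCTG or its reverse complement, 5′ to 3′ along the gene.
Cel, chr2:28563404-28563653, - strand: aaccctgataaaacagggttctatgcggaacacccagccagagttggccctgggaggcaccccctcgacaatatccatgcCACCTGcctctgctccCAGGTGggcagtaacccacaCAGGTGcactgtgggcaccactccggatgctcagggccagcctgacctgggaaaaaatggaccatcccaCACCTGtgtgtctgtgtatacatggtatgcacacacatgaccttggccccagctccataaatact
Cela1, chr15:100687921-100688170, - strand: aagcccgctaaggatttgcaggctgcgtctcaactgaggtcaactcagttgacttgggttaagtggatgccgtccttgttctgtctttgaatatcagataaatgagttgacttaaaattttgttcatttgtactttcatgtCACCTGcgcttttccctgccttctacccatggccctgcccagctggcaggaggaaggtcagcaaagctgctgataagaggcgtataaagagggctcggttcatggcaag
Bhlha15, chr5:144190036-144190285, + strand: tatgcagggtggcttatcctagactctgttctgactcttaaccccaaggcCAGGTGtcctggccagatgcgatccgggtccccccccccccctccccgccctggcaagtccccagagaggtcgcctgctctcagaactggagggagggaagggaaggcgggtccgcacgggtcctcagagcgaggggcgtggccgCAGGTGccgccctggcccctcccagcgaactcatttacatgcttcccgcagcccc
Rbpjl, chr2:164402944-164403193, + strand: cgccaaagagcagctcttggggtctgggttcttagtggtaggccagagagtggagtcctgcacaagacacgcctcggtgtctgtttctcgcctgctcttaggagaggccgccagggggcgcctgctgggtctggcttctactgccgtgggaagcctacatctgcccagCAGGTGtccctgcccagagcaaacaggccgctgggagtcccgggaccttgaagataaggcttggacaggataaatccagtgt
Pnlip, chr19:58670115-58670364, + strand: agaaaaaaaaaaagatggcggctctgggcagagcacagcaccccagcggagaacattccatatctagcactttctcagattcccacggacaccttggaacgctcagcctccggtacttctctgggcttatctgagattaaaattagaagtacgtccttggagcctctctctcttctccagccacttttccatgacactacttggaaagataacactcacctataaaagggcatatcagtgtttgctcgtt
Cel held 4 such boxes, Bhlha15 2, and Cela1 and Rbpjl 1 each. In Cela1 the box began at position -109 from the start and TTTCCC at -99. A match describes letters, and no match in the Pnlip window says only that these letters are not there.

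The acinar genes differed widely between the islets of single mice, and the difference ran within both genotypes. The 30 probes spanned a median of 1.99 log2 units from the lowest to the highest mouse, against 1.1 for all 39165 probes compared, and 22 of 30 exceeded that background median. Of the 29 genes measured in all 7 mice, 27 had WT 2 and KO 3 as the lowest pair, a placing that 16.3% of all compared probes shared. The exceptions were Cpa1 and Try4, in which KO 3 and WT 4 were the lowest pair. At this scaling KO 1 was the highest mouse in 21 of 30 genes and KO 2 in 7. Sycn, a zymogen granule protein, lacked a value in WT 2 because its spot was marked as non-uniform there, and it was compared over 6 mice.

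Each gene was then centred on its own mean over the mice. The median of the centred members was 0.37 in WT 1, -1.34 in WT 2, 0.08 in WT 3 and 0.24 in WT 4. It was 0.68 in KO 1, 0.43 in KO 2 and -0.71 in KO 3. The lowest mouse was thus a WT mouse and the next lowest a KO mouse, while the highest pair were KO mice at this scaling, and the genotypes overlapped. Under quantile normalisation the same medians were -0.90 in WT 2 and -0.25 in KO 3, and the deposited Z scores gave -0.50 and -0.36, so WT 2 and KO 3 had the lowest medians under both. The highest pair became KO 1 and WT 4 under quantile normalisation (0.33 and 0.24) and KO 1 and WT 1 with the Z scores (0.30 and 0.28). Gene by gene, WT 2 and KO 3 were the lowest pair in 20 of 29 members under quantile normalisation, 27 of 29 with the Z scores and 29 of 30 with the median pixel signal. KO 1 was highest in 16 and KO 2 in 2 of 29 members under quantile normalisation, and in 13 and 1 with the Z scores. The median range of the members was 1.28 under quantile normalisation and 1.98 with the median pixel signal, with no value for all probes beside these.

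**Figure D1:**
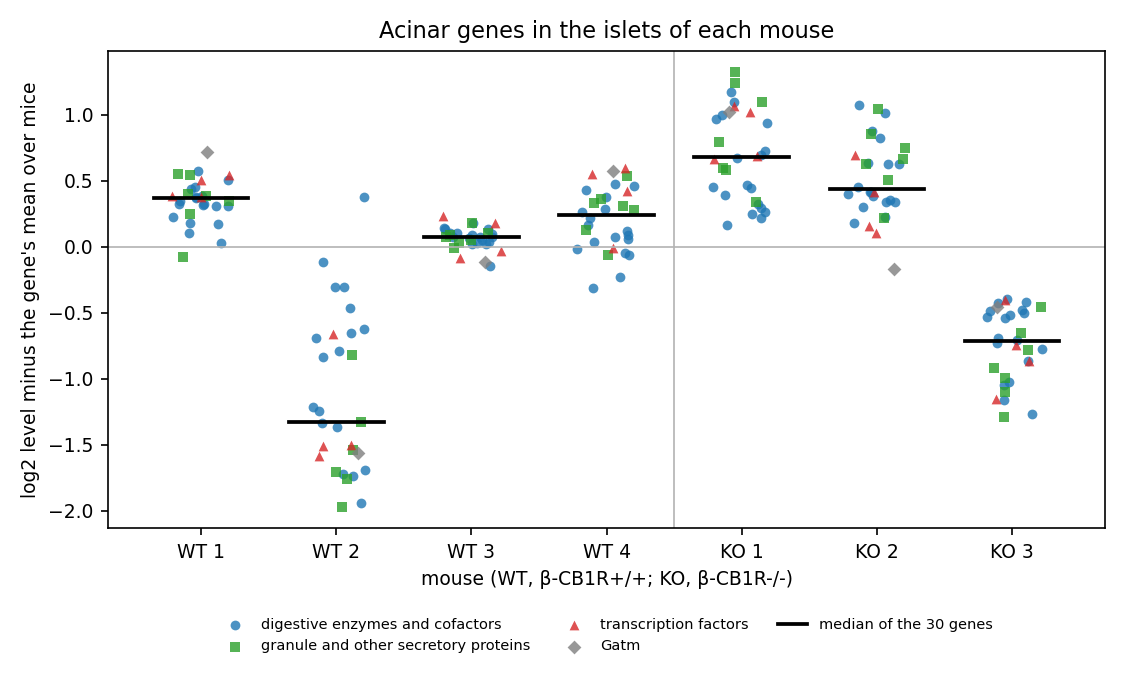
Log2 level of each of the 30 acinar genes minus its own mean over mice (y axis) in each of the 7 mice (x axis; 29 genes in WT 2, where Sycn has no value); symbols give the gene class and black bars the median. WT 2 (median -1.34) and KO 3 (median -0.71) lie below the other 5 mice, and KO 1 (0.68) is highest.

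The 5 widest ranges belonged to 3 secretory genes and to the enzymes Klk1 and Pla2g1b. Cuzd1, a zymogen granule membrane protein, read 6.20, 3.69, 5.75 and 5.94 in WT 1 to 4 and 6.98, 6.70 and 4.37 in KO 1 to 3, a range of 3.29. Klk1, a tissue kallikrein, read 9.40, 7.0, 8.98 and 9.32 in the WT mice and 10.12, 10.02 and 7.78 in the KO mice, a range of 3.12. In both genes WT 2 and KO 3 lay below every other mouse, and KO 1 and KO 2 lay above every other mouse. Serpini2, a serine protease inhibitor of the pancreas, read 7.37, 5.32, 7.05 and 7.56 in the WT mice and 8.26, 7.69 and 5.92 in the KO mice. Tff2, a trefoil peptide, read 8.66, 6.52, 8.38 and 8.61 and then 9.37, 9.13 and 7.28. Pla2g1b, the pancreatic phospholipase A2, read 7.82, 5.77, 7.57 and 7.92 and then 8.59, 8.32 and 6.47. The same 2 mice were lowest in these genes as well, and the level in WT 2 was the lower.

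Among the classical enzymes the order of the lowest pair varied, and it depended on the scaling. At this scaling KO 3 was the lowest mouse in Cela3b, Ctrb1, Cpa1, Cpb1, Try4, Clps and Pnliprp2, and WT 2 in the other enzymes and cofactors. Under quantile normalisation KO 3 was lowest in 1 of 29 members and WT 2 in 23. Cel, the bile salt-dependent lipase, read 11.20, 10.06, 11.03 and 10.98 in the WT mice and 11.35, 11.29 and 10.36 in the KO mice. Pnlip, the pancreatic triglyceride lipase, read 10.28, 9.34, 9.99 and 10 and then 10.36, 10.35 and 9.45. Prss2, an anionic trypsinogen, read 10.79, 9.67, 10.54 and 10.54 and then 10.91, 10.88 and 9.92. In these 3 genes WT 2 was lowest and KO 3 next. Ctrb1, a chymotrypsinogen, had the narrowest range of all members, 0.72, with 10.87, 10.39, 10.77 and 10.63 in the WT mice and 10.94, 10.99 and 10.27 in the KO mice, and here KO 3 was lowest. Before scaling, the intensity of Ctrb1 was 387600 in WT 2 and 447400 in KO 3, so that order came with the scaling.

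Cpa1, a procarboxypeptidase, departed furthest from the others, through a single spot. It read 10.72, 11.07, 10.72 and 10.38 in WT 1 to 4 and 10.91, 10.87 and 10.19 in KO 1 to 3, so that WT 2 was its highest mouse. The scanner software gave that spot in WT 2 an intensity 5.21 times its median pixel signal, whereas on the other 7 arrays the ratio was 1.06 to 1.15, and the spot was not marked as an outlier. The median pixel signal of Cpa1 was 8.48 in WT 2 and 9.88 to 10.59 in the other mice, on the log2 scale relative to the 75th percentile. The Sycn spot of WT 2 had a ratio of 3.47. Among spots with a median pixel signal of at least 10000, 10 of 1453 on the WT 2 array exceeded a ratio of 3, and 0 did on each of the other arrays.

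Range and brightness were set side by side. Among the 25 enzyme and secretory genes, the 19 whose highest intensity reached 250000 units had a median range of 1.24 (0.72 to 3.12), and the 6 below it had a median of 2.83 (2.28 to 3.29). The spans overlapped, since Klk1 and Ctrl reached that intensity and ranged over 3.12 and 2.63, and the far dimmer Bhlha15 over 1.36. No spot was saturated, yet the highest intensity came to 90.2% of the scanner limit for Cela3b, a proelastase, and to 85.2% for Cel. For Clps, pancreatic colipase, the brightest probe ranged over 0.76 and a dimmer probe of the same gene over 2.29. For Gp2, the main glycoprotein of the zymogen granule membrane, the probes ranged over 2.33 and 2.55. The trypsinogens Prss2, Try4 and Try5, the elastases and Klk1 belong to families of similar genes whose transcripts a probe may share. Whether brightness set the ranges was not tested.

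**Figure D2:**
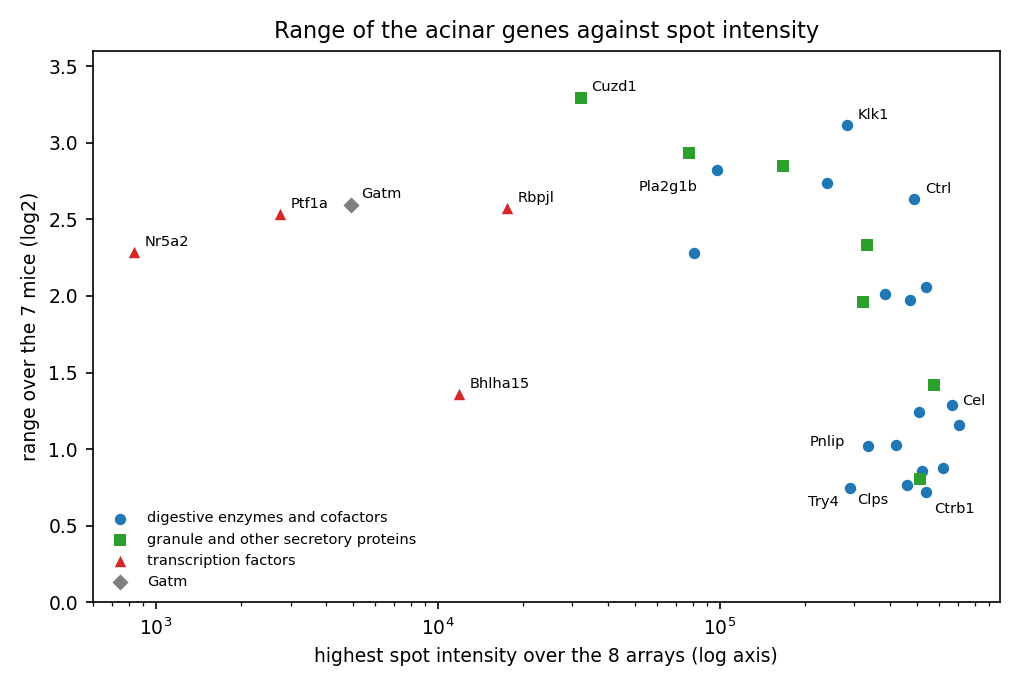
Range of each acinar gene over the 7 mice in log2 units (y axis) against its highest spot intensity on the 8 arrays (x axis, log scale), by gene class. Genes with ranges under 1, such as Ctrb1 (0.72), all reached 250000 units, but so did Klk1 (3.12) and Ctrl (2.63).

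The transcription factors, whose probes were far dimmer, varied over the same mice. Ptf1a read 2.92, 0.91, 2.60 and 2.97 in WT 1 to 4 and 3.44, 2.83 and 1.26 in KO 1 to 3. Rbpjl read 5.43, 3.54, 5.28 and 5.47 and then 6.11, 5.20 and 4.30. WT 2 was the lowest mouse and KO 3 the next lowest in both partners of the PTF1 complex. Bhlha15 read 5.23, 4.19, 4.77 and 4.84 and then 5.54, 4.96 and 4.45. Nr5a2 read 1.49, -0.64, 0.91 and 1.54 and then 1.61, 1.64 and 0.08. All 4 factors were therefore lowest in WT 2, and their ranges ran from 1.36 for Bhlha15 to 2.57 for Rbpjl, with a median of 2.41, beside a median of 1.96 for the 25 enzyme and secretory genes. A dimmer Nr5a2 probe had a range of 1.13 and its lowest value in KO 3.

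Between KO 1 and KO 2, 3 of the factors differed more than most enzymes did. From KO 1 to KO 2 the enzyme and secretory genes differed by a median of -0.06 (-0.56 to 0.19). Rbpjl was lower in KO 2 by 0.91, Ptf1a by 0.62 and Bhlha15 by 0.59, and Nr5a2 differed by 0.03. None of the 25 enzyme and secretory genes was as much lower in KO 2 as Bhlha15, although 18.2% of all compared probes were. Serpini2, at -0.56, came close. Such differences were not confined to the factors. Of the acinar genes outside the member list, Aqp8 was lower in KO 2 by 1.36 and Cckar by 1.01, whereas Reg1 differed by 0.01 and Prss1 was higher by 0.34. Gatm, which makes the creatine precursor guanidinoacetate, read 3.96, 1.68, 3.13 and 3.82 in the WT mice and 4.27, 3.08 and 2.79 in the KO mice, so KO 2 lay 1.20 below KO 1. The repeat arrays of KO 2 differed by at most 0.14 in any member, with a median of 0.05, against a median of 0.14 for all compared probes. Over all compared probes the difference between KO 2 and KO 1 had a median of -0.14 and an SD of 0.61. With 1 mouse on each side these differences have no test.

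**Figure D3:**
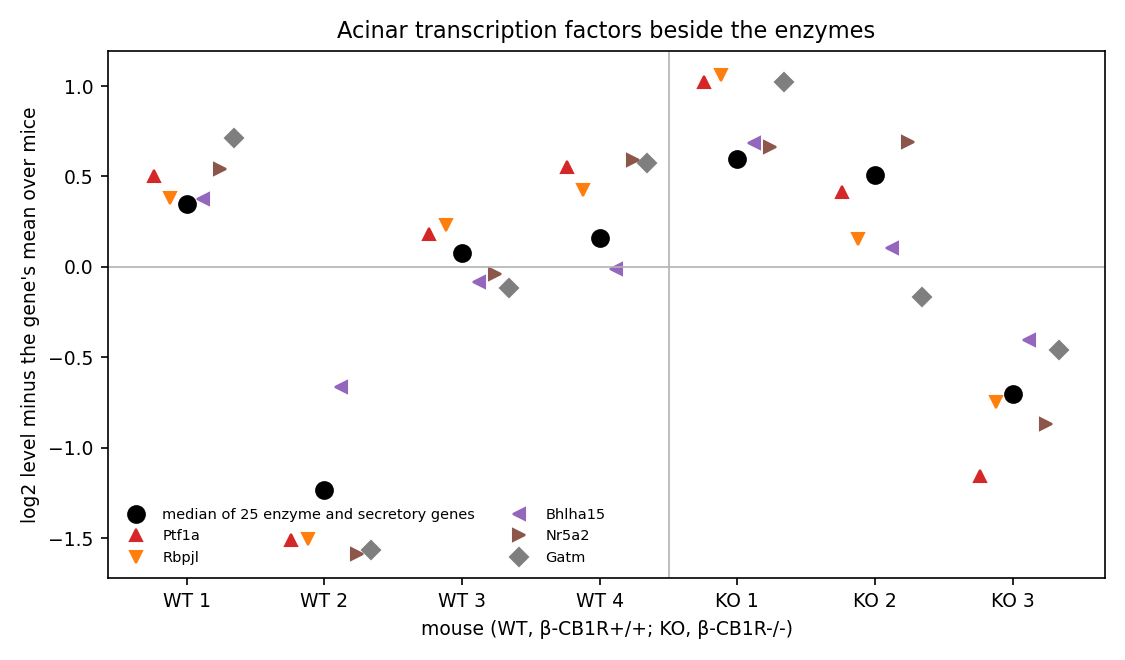
Log2 level minus the gene's mean over mice (y axis) for the median of the 25 enzyme and secretory genes (black), the 4 transcription factors and Gatm in each of the 7 mice (x axis). Rbpjl, Ptf1a, Bhlha15 and Gatm are lower in KO 2 than in KO 1, where the enzyme median differs little.

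The comparison of genotypes asked whether deleting CB1R in beta cells went with more or less acinar RNA in the islets. None of the 30 members passed the adjusted threshold of 0.05 in limma, and none reached an unadjusted p under 0.05, while 43 of 39165 probes passed, a background of 0.110%. No member had groups that did not overlap, against 4.12% of all compared probes. The mean was higher in the KO mice for 29 of the 30 genes, with a median difference of 0.23, while 47.7% of all probes were higher in the KO mice and their median difference was -0.02. The differences ran from -0.07 for Cpa1 to 0.63 for Klk1, with standard errors of 0.24 to 0.79. The value for Cpa1 rests on the WT 2 spot: with the median pixel signal its means were 10.31 in the KO mice and 9.74 in the WT mice, a difference of 0.57. Klk1 was 9.31 ± 1.32 (SD, n = 3) in the KO mice and 8.68 ± 1.13 (SD, n = 4) in the WT mice, with an exact permutation p of 0.514 (two-sided), and Ptf1a was 2.51 ± 1.13 and 2.35 ± 0.98, with an exact permutation p of 0.800. The smallest p that the 35 divisions of 7 mice allow is 0.0286, and the members lay between 0.514 and 1. Without WT 2 the KO mean was higher in 11 of the 30 genes, without KO 1 in 15 and without KO 3 in 30, so the direction rested on single mice.

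The relation of other genes to the acinar level was fitted over the 7 mice with limma, with genotype as a term, and slopes are in log2 units per log2 unit of the acinar gene. On Cpa1 0 of 39129 probes passed the adjusted threshold (0.00%) and 4.18% had an unadjusted p under 0.05. The WT 2 spot described above is among the 7 values of that fit. With the median pixel signal of Cpa1 the count was also 0. On Pnlip, whose spots had processed-to-median ratios of 0.87 to 1.00, 1217 probes rose (3.11%) and 92 fell (0.235%), and the median slope of all probes was 0.17. On Cel 980 rose (2.50%) and 54 fell (0.138%), and 909 probes passed on both. On Ctrb1, whose range was the narrowest, 0 probes passed. An unadjusted p under 0.05 was reached by 28.7% of all probes on Pnlip and by 25.7% on Cel, and the counts at that level below are to be read against these shares.

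The count on Pnlip was 0 without WT 2, without WT 3, without KO 1 or without KO 3, and 362 to 909 without any other mouse. On Cel it was 0 without WT 2, KO 1 or KO 3. It was also 0 on both genes with quantile normalisation or the deposited Z scores, but 5217 and 3732 with normexp on the median pixel signals and 2390 and 1904 with no genotype term. WT 2 and KO 3 lay apart from the other mice, so the slopes describe these 7 islet samples and no correlation is given.

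Of the 28 members fitted on Pnlip, 28 had a slope above 0, as had 58.0% of all probes, and 20 rose past the adjusted threshold, as did 3.11% of all probes. Of the 17 enzymes and cofactors 12 rose, with a median slope of 1.16, and all 6 fitted secretory genes rose, with a median of 2.19. Cuzd1 rose by 2.77 (SE 0.24) and Klk1 by 2.62 (SE 0.26), with adjusted p = 0.0176 for both (limma). The slopes of Ctrb1 and Clps were 0.64 each and did not pass. Ptf1a rose with a slope of 2.19 (SE 0.31, limma adjusted p = 0.0257) and Nr5a2 with 2.04 (SE 0.31, limma adjusted p = 0.0286). Rbpjl had a slope of 1.82 (limma adjusted p = 0.0590), Bhlha15 0.97 (limma adjusted p = 0.0730) and Gatm 1.69 (limma adjusted p = 0.106), and none of these passed. On Cel Rbpjl passed as well, with a slope of 1.63 (limma adjusted p = 0.0374), and 21 of 28 members rose.

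Further acinar genes, not among the 31, were fitted too. Of 19 tested, 12 rose on Pnlip and on Cel, where 3.11% and 2.50% of all probes rose, with a median slope of 1.60 on Pnlip. Among them were Spink1, the trypsin inhibitor of acinar granules (2.22, SE 0.30), Pdia2, a disulphide isomerase of the pancreas (2.25, SE 0.27), the water channel Aqp12 (2.76, SE 0.36) and the transcription factor Gata4 (2.60, SE 0.29). Of the regenerating proteins, Reg2, Reg3a, Reg3b and Reg3g did not pass, with slopes of 0.36, -0.29, 1.42 and 1.08. Reg2 read 8.62, 8.06, 8.50 and 6.42 in the WT mice and 9.03, 10.07 and 9.09 in the KO mice. Reg1 and Reg3d, of the same family, rose with slopes of 1.60 (SE 0.27) and 1.88 (SE 0.22).

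Over all genes, the profile closest to the median of 23 enzyme and secretory genes (all but Cpa1 and Sycn) was sought after the values had been seen, by the root mean square difference of the centred levels. Among genes that are not members, Klk1b5, another kallikrein, was closest at 0.05, and Gm5771 and Reg1 stood at 0.10. Sel1l, a component of the degradation machinery of the endoplasmic reticulum, stood at 0.13. The median over all 16939 genes measured was 0.76. Klk1b5 read 9.80, 8.18, 9.48 and 9.57 in the WT mice and 9.97, 9.99 and 8.61 in the KO mice.

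Most endocrine genes had slopes of the opposite sign. Of 60 endocrine genes fitted, 50 had a slope below 0 on Pnlip and also on Cel, and 29 and 25 of them had one with an unadjusted p under 0.05, beside 28.7% and 25.7% of all probes in either direction. Slopes above 0 were found for 58.0% and 57.4% of all probes. On Cpa1 46 had a slope below 0, but 10 without KO 3. Without the 2 mice farthest from the median level, 36 slopes were below 0 on Pnlip and 30 on Cel. Papss2 alone fell past the adjusted threshold on either gene at this setting. With normexp background correction of the median pixel signals 27 fell on Pnlip and 20 on Cel, and with no genotype term 4 fell on Pnlip. Papss2, a sulphate-activating enzyme that marks beta cells here, read 6.42, 7.49, 6.68 and 6.44 in WT 1 to 4 and 6.03, 6.08 and 6.87 in KO 1 to 3, so WT 2 was its highest mouse and KO 3 the next. Its slope on Pnlip was -1.04 (SE 0.20, limma adjusted p = 0.0473) and on Cel -0.91 (SE 0.16, limma adjusted p = 0.0431), and the call was lost whichever mouse was left out.

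Among 21 beta cell genes, 18 had a slope below 0 on Pnlip, with a median of -0.84. Slc30a8, the zinc transporter of insulin granules, read 6.88, 7.71, 7.28 and 6.99 in the WT mice and 6.44, 6.20 and 7.10 in the KO mice, with a slope of -0.87 (limma adjusted p = 0.0635). Slc2a2, which codes for GLUT2, read 4.61, 6.05, 5.65 and 5.24 and then 4.66, 3.97 and 5.30, with a slope of -1.22 (limma adjusted p = 0.0816). Neurod1, an endocrine transcription factor, read 1.38, 2.65, 2.27 and 1.56 and then 1.12, 1.44 and 2.19. WT 2 was highest in all 3 genes, and none passed the adjusted threshold. Of 18 pan-endocrine genes, 17 had a slope below 0 and 0 passed, with a median of -0.54, and 10 had an unadjusted p under 0.05, which 28.7% of all probes reached.

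Ins1, Ins2, Iapp and Gcg had slopes above 0, and Sst had one below 0. Ins1 read 11.23, 10.85, 10.91 and 10.78 in the WT mice and 11.05, 11.03 and 10.41 in the KO mice. Ins2 read 10.47, 9.89, 10.13 and 10.11 and then 10.47, 10.50 and 9.71. Iapp, islet amyloid polypeptide, read 10.05, 9.55, 9.77 and 9.59 and then 9.84, 9.88 and 9.31. All 3 were lowest in KO 3 at this scaling, and their slopes on Pnlip were 0.51, 0.71 and 0.53, with adjusted p of 0.171, 0.0822 and 0.138 (limma). Levels of Pnlip and of these genes were taken relative to the same 75th percentile, which was highest in KO 3 at 362 units. Before scaling, the intensity of Ins1 ran from 493500 to 599100 over the 8 arrays and that of Iapp from 216800 to 264500. How far the shared scaling set these slopes was not tested. Gcg, glucagon, had a slope of 0.28, Sst, somatostatin, of -0.49, and Ppy, pancreatic polypeptide, of 0.01, and none passed.

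**Figure D4:**
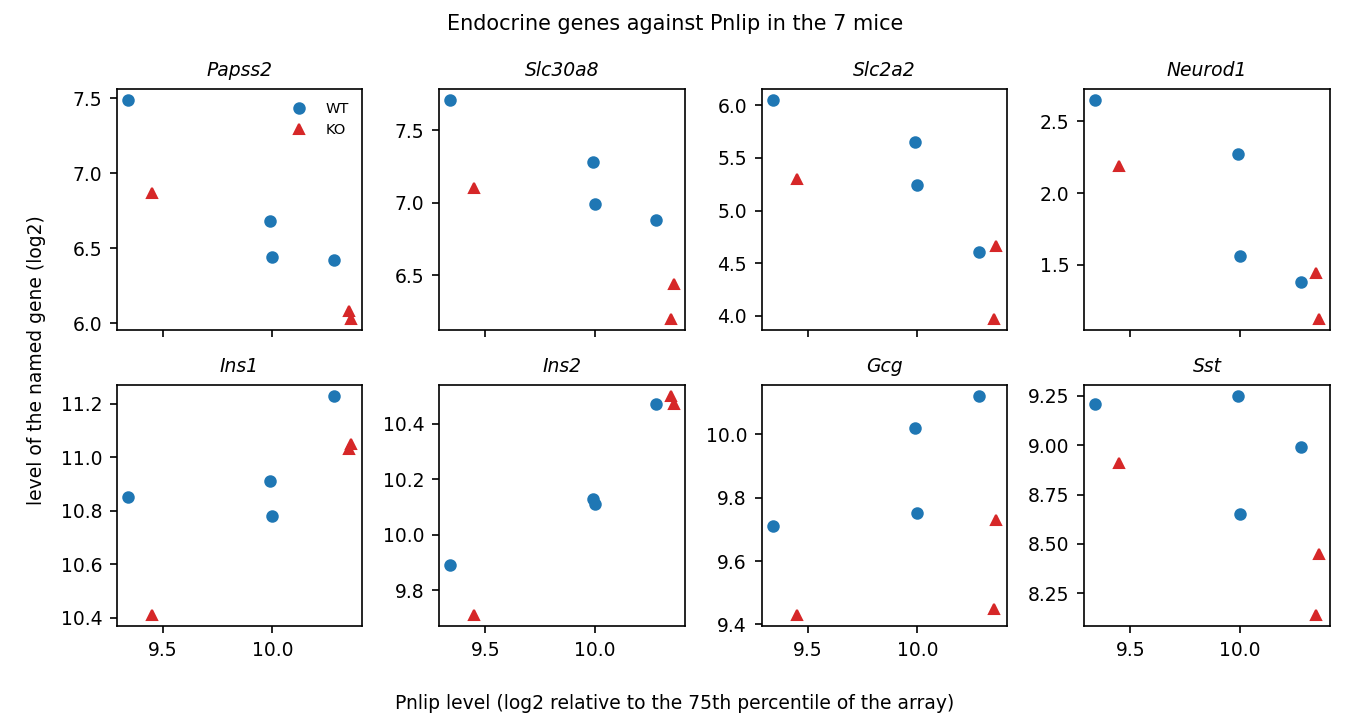
Level of 8 endocrine genes (y axes, log2) against the level of Pnlip (x axis, log2 relative to the 75th percentile of the array), 1 point per mouse, blue circles WT and red triangles KO. Papss2, Slc30a8, Slc2a2 and Neurod1 are highest in WT 2, the mouse with the lowest Pnlip (9.34), whereas Ins1 and Ins2 are lowest in KO 3 (Pnlip 9.45) at this scaling.

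Alpha cell genes showed no common direction, with a median slope of -0.07 over 14 genes. Slc38a5, a glutamine transporter on the alpha cell list, rose on both acinar genes. Slc38a5 read 5.92, 3.24, 5.10 and 5.50 in the WT mice and 6.51, 5.29 and 4.22 in the KO mice, with a slope of 2.35 on Pnlip (SE 0.44, limma adjusted p = 0.0473). Sstr2, a somatostatin receptor, passed as well, but its probe was well above background on 4 of 8 arrays, and in WT 2 and KO 3 it read -4.63 and -4.73, below the lowest level well above background there (-3.91 and -3.95), so its slope is not read as a change. Of 7 delta and PP cell genes 6 had a slope below 0 and 0 passed, with 4 at an unadjusted p under 0.05 (28.7% of all probes).

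Markers of other cells of the exocrine pancreas and stroma were read beside these. Of 17 duct cell genes 11 had a slope above 0 on Pnlip and 6 below, with a median of 0.49, and 0 passed. Of these 3 had an unadjusted p under 0.05, as did 28.7% of all probes. Muc1, a mucin of duct cells, rose on Cel alone (2.13, SE 0.35, limma adjusted p = 0.0373), a difference between the acinar genes that was not tested. Krt19, a duct keratin, read 0.63, -1.18, 0.47 and 1.59 in the WT mice and 1.83, 1.61 and -0.49 in the KO mice, lowest in WT 2 and KO 3. Krt7, another duct keratin, had a slope of -0.39 and was highest in WT 2 at 3.47. Of 13 stellate cell and fibroblast genes 0 passed, with a median slope of 0.59 and 1 at an unadjusted p under 0.05 (28.7% of all probes), and Col1a1, a collagen chain, was highest in WT 4 at 2.43 and read -2.26 to 1.19 in the other mice. The 12 endothelial and the 13 macrophage genes had median slopes of -0.14 and -0.29, and 0 passed, with 3 and 2 at an unadjusted p under 0.05, beside the same 28.7%. Of 19 genes of the secretory machinery of the endoplasmic reticulum, Pdia2, also counted among the further acinar genes, and Sel1l rose, where 3.11% of all probes did. The median slope was 0.23, 9 slopes were below 0, and 6 genes had an unadjusted p under 0.05, among them Pdia3 (-0.75) and Hsp90b1 (-0.63), chaperones of that compartment, with slopes below 0.

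**Figure D5:**
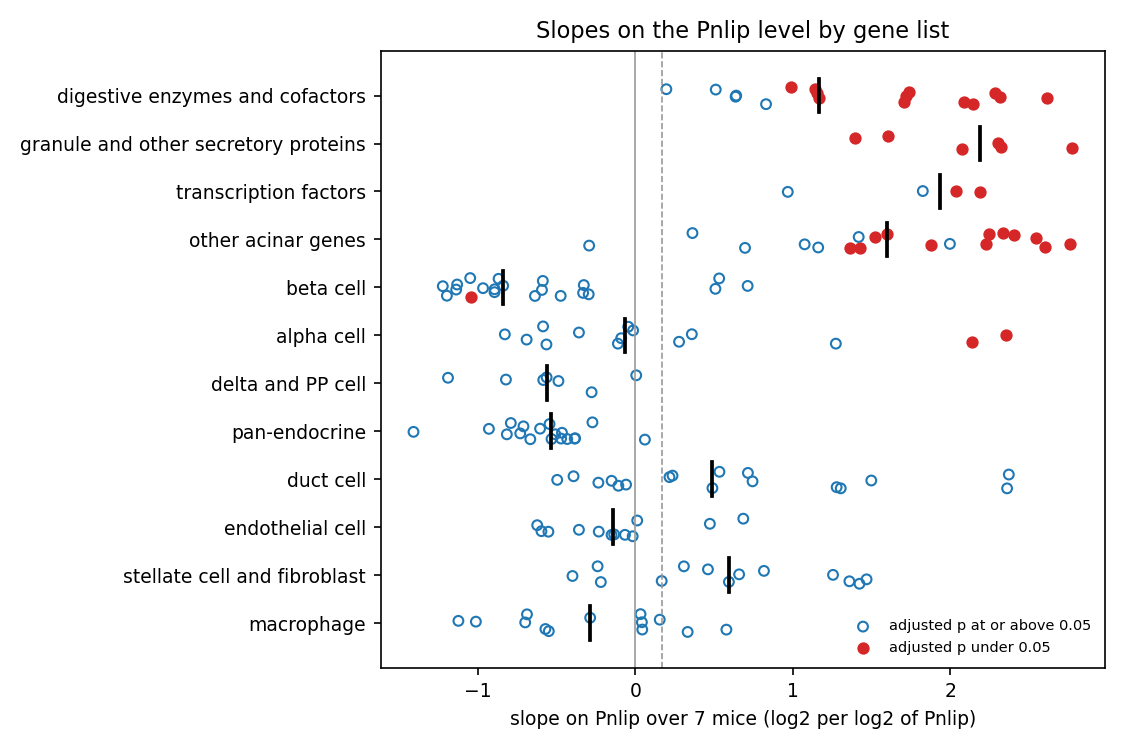
Slope on Pnlip over the 7 mice in log2 units per log2 unit (x axis) for the genes of each list (y axis), with genotype in the fit; filled red points passed the adjusted threshold, open points did not, black bars are medians and the dashed line is the median of all probes (0.17). The acinar lists lie to the right, with medians of 1.16 to 2.19, and the beta cell list to the left, with a median of -0.84.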

How the data were processed

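Islet RNA of 7 mice was read on 8 1-colour Agilent arrays. The authors deposited the spot intensity of each array from Feature Extraction 11.5.1.1, background-subtracted and not scaled between arrays, together with the median pixel intensity and a Z score. The deposited Z score matched the Z score of the log10 intensity to within 0.005. The number of arrays limits the precision.

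The log2 intensity of each of 59305 non-control spots was taken relative to the 75th percentile of its array. Spots marked as outliers were removed, and means were formed over the spots of 1 probe and then over the repeat arrays of KO 2. A probe was compared when well above background in at least 3 of 7 mice (39165 of 55681 probes), which all 30 members with a probe passed, 29 of them on all arrays. Probes were named through RefSeq accessions (28026 with a symbol). Genotype differences and slopes were fitted with limma 3.58.1 in R 4.3.3 on all probes, two-sided, with Benjamini-Hochberg adjustment at 0.05, and single genes had an exact permutation test. The fits were tested on simulated data.

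The members and lists were chosen with earlier results of these data known. Values per mouse were given for the 5 members of widest range, Cpa1, Ctrb1, Cel, Pnlip, Prss2 and the transcription factors, and the hormones were always named. Cpa1 was the planned measure of the acinar level, with Ctrb1, Cel and Pnlip as alternatives, and list genes past the threshold were to be named from it. As it called none, Pnlip and Cel took that place, and the genes most correlated with Cpa1 were not named, because those genes rest on the WT 2 spot. The remaining named genes were chosen after their values were seen. Alternatives were quantile normalisation, normexp background (offset 50, on median pixel signals with marked spots kept), the Z scores, other filters, single repeat arrays, an intensity trend, each mouse left out, a replicate block, no genotype term and the methods' t-test. All arrays shared 1 slide and scan, so no block for these was fitted. A further gene is not reported here.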

Additional observations from a re-analysis of the deposited data

Results flagged for a closer look

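In the 4 WT mice, 129 measures were examined for a single mouse far from the others, which chance flags in about 5% of groups, and 15 had one. WT 2 was the mouse apart in 6 acinar genes and lay below the rest. It read 8.89 for Cela1 (10.28 to 10.52 in the other WT mice), 8.28 for Ctrl, a chymotrypsin-like protease (10.07 to 10.34), 5.77 for Pla2g1b (7.57 to 7.92), 8.36 for Dmbt1, a secreted scavenger protein (9.87 to 10.05), 6.52 for Tff2 (8.38 to 8.66) and 3.54 for Rbpjl (5.28 to 5.47). The same held for 6 further acinar genes, with 7.17 for Spink1, 4.93 for Erp27, 7.40 for Pdia2, 1.29 for Aqp12, 2.97 for Tmed6 and 8.67 for Reg1. The measures share 1 array and are not independent. WT 1 stood apart in 2 endocrine genes, at 2.32 for Gipr, the GIP receptor (3.10 to 3.22 in the others), and at -1.42 for Pou3f4, an alpha cell factor (-2.75 to -2.67). The Pou3f4 probe was dim, at 38.4 to 92.9 intensity units over the arrays, and differed by 0.67 between the repeat arrays of KO 2. The median of the negative control spots was 55 intensity units in WT 1 and 47.0 to 48.2 in the other WT mice.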

How the results depend on the processing

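No member passed the adjusted threshold between genotypes in any setting (lowest adjusted p 0.507), and the methods' t-test gave 0 members, and 1412 probes, at an unadjusted p under 0.05. The count of probes past the threshold between genotypes was 43, against 23 when dim probes were kept, 24 when every array had to exceed background, 0 with the replicate block, 0 by the methods' t-test after adjustment and 0 to 42 on leaving out a mouse. The median genotype difference of the members was 0.23, between -0.042 and 0.69 without 1 mouse, and 11 to 30 members were higher in the KO mice. Of the 30 members, 7 changed sign in at least 1 setting that kept all mice (estimates of -0.13 to 0.57) and 24 on leaving out a mouse (-0.32 to 0.17). Cpa1 changed to 0.57 with the normexp background. That setting started from the median pixel signals and kept marked spots, so it changed the signal and the spots used as well as the background, and its moves cannot be put down to the background alone. Without 1 mouse the differences of Pnlip, Ptf1a, Rbpjl and Cpa1 lay between -0.038 and 0.45, -0.32 and 0.79, -0.19 and 0.73, and -0.19 and 0.17.

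On Cpa1 the count of probes past the threshold was 0, and also 0 on Ctrb1, but 1034 on Cel, 1309 on Pnlip, 1476 on Cuzd1, 1205 on Ptf1a (both chosen after seeing the data) and 644 with the normexp background, and endocrine genes falling past the threshold went from 0 to 1 on each of those 4 genes. The median slope of the enzyme and secretory members was 0.36 on Cpa1, 1.48 on Cel, 2.37 on Ctrb1, 1.71 on Pnlip, 1.40 with the replicate block, -1.87 with quantile normalisation and -2.30 to 1.55 without 1 mouse. The slopes of Rbpjl and Nr5a2 on Cpa1, -0.01 and -0.03, became 1.19 and 1.23 with the median pixel signal, 1.63 and 1.77 on Cel, 2.44 and 2.74 on Ctrb1, 0.69 and 0.74 on Cuzd1, 1.82 and 2.04 on Pnlip, 0.87 and 0.91 on Ptf1a, 0.79 and 0.50 with the Z scores, 1.11 and 0.95 with the normexp background, and 2.22 and 1.19 with the replicate block. Ptf1a went from 0.34 to -4.08 with quantile normalisation and -0.48 without the 2 mice farthest in Cpa1, and Bhlha15 from 0.29 to -1.68 with quantile normalisation. Without 1 mouse, these slopes on Cpa1 lay between -2.75 and 1.53 (Rbpjl), -3.20 and 1.59 (Nr5a2), -2.97 and 2.07 (Ptf1a) and -0.91 and 1.03 (Bhlha15).

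The settings for Pnlip and Cel were added after seeing the data. The counts of 1309 and 1034 probes became 2390 and 1904 with no genotype term and 5217 and 3732 with the normexp background. They were 0 and 0 with quantile normalisation, the Z scores, the replicate block (1 residual degree of freedom) or without the 2 farthest mice, and 0 to 909 and 0 to 580 without 1 mouse. Endocrine genes falling past the threshold, 1 on each, were 4 on Pnlip with no genotype term, 27 and 20 with the normexp background, and 0 in the settings that called no probe and without any 1 mouse. The median slopes of 1.71 and 1.48 became 1.37 and 1.22 with the Z scores, 6.08 and 2.03 with quantile normalisation and 0.75 and 1.18 without the 2 farthest mice, and without 1 mouse that on Pnlip was 1.41 to 1.83. The 50 endocrine genes of slope below 0 on Pnlip became 43 to 54 in the settings that kept all mice and 44 to 52 without 1 mouse, and the 46 on Cpa1 became 7 with quantile normalisation and 13 without the 2 farthest mice. The causes were not tested. The deviations of same-numbered WT and KO mice correlated at 0.42, -0.27 and -0.06, and the labels do not tie the numbers to a litter or day, so the numbers do not pair the mice. A block for slide or scan was not run, because there was 1 of each. With 7 mice, a gene that missed the threshold is not shown to be level.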
